A study of Rattus norvegicus with 36 samples.

Results

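Dibutyryl cyclic AMP (DBcAMP) was compared with no treatment in cultured rat pineal glands, which accounts for 6 of the 36 libraries of the series, 3 labelled DBcAMP and 3 labelled Untreated. The libraries were chosen by their labels alone. Glands of adult female Sprague-Dawley rats spent 48 hours in organ culture before they received 500 µM DBcAMP or no agent for 6 hours. Glands treated with 1 µM norepinephrine (NE) for the same time (3 libraries) were cultured alongside. Replicates are pools of glands rather than animals, and the p-values measure the spread between pools. The other groups used here are glands taken directly from rats at day or night: Control rats with no surgery (3 libraries at each time), Sham rats, SCGX rats without their superior cervical ganglia, and DCN rats whose ganglia were cut off from central input. These rats were younger than those of the cultures and of both sexes, and the surgery had been done on pups. Their libraries were sequenced in a separate pool from those of the cultures. Levels in cultures and in these glands therefore differ by culture, age, sex and sequencing pool together, which cannot be told apart. All cultured glands, Untreated ones included, are cut off from their nerves.

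The pineal gland makes melatonin at night. Sympathetic nerves release norepinephrine onto the pinealocytes, adrenergic receptors activate adenylate cyclase, and cyclic AMP then activates protein kinase A, which phosphorylates the transcription factor CREB. DBcAMP is an analog of cyclic AMP that crosses the cell membrane and so enters this pathway below the receptors. NE acts through beta-adrenergic receptors, which activate adenylate cyclase, and alpha-adrenergic receptors, which potentiate this effect through calcium and protein kinase C.

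The totals on genes ranged from 14304207 to 18524435 read-pairs in Untreated libraries and from 12556861 to 13336295 in DBcAMP libraries, and no replicate pair was identical. The files list Ensembl identifiers without symbols, and none of the 29516 identifiers could be paired with a symbol here. Markers of pinealocytes and of other cells were therefore not analysed here, and genes are described by level, size of change and behaviour in other groups. As a check of tissue that needs no names, 213 genes were over 8-fold above mixed tissue (RNA of other organs) in a pineal day library with at least 30 read-pairs (1 library each). Of these, 143 exceeded 8-fold in all 3 Control day libraries, 80 in all 3 Untreated libraries and 72 in all 3 DBcAMP libraries. Fewer cells of a type and less RNA per cell cannot be told apart in such samples.

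DBcAMP changed 2538 of 15176 tested genes (16.7%) at an adjusted p-value under 0.001 by edgeR's quasi-likelihood test. Transcripts rose for 1462 genes (9.63%) and fell for 1076 (7.09%). The rises reached much further than the falls: 200 genes (1.32%) rose more than 4-fold and 15 (0.0988%) fell more than 4-fold. The balance of directions depended on the scaling. With library size alone 1069 of 3012 genes were higher (35.5%) in place of 57.6%, and the median of all genes was -0.17 instead of -0.03 on the log2 scale, a shift of 0.14. All 1076 lowered genes were also lowered with that scaling, as were 189 of the 200 strongly raised and 1069 of the 1462 raised genes in their own direction. The number of lowered genes was 663, 584 and 518 without Untreated replicate 1, 2 or 3 and 563 without DBcAMP replicate 1. The total was 1663 and 1559 without Untreated replicate 2 or 3.

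**Figure D1:**
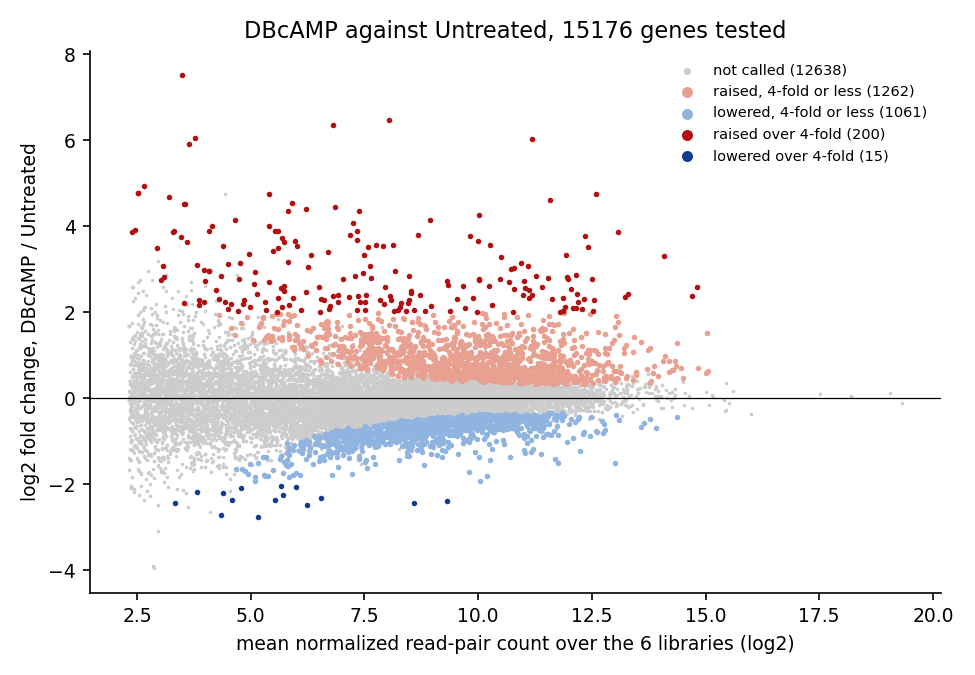
Log2 fold change of DBcAMP over Untreated against the mean normalized read-pair count of the 6 libraries (log2), 1 point per tested gene, with genes at an adjusted p-value under 0.001 in colour. The 200 genes raised over 4-fold are spread over most of the range of counts, and the 15 genes lowered over 4-fold lie in its lower part.

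Most changes were moderate. Of the raised genes, 327 rose less than 1.5-fold, 486 rose 1.5- to 2-fold and 449 rose 2- to 4-fold. A further 126 rose 4- to 8-fold, 49 rose 8- to 16-fold, 19 rose 16- to 32-fold and 6 rose more than 32-fold. Among the lowered genes, 329 fell less than 1.5-fold, 536 fell 1.5- to 2-fold, 196 fell 2- to 4-fold and 15 fell 4- to 8-fold. A change over 2-fold was thus found for 44.4% of raised and 19.6% of lowered genes, and the largest fall was 2.76 on the log2 scale. The 3 DBcAMP and 3 Untreated libraries did not overlap for any of the 2538 genes, against 52.9% of all tested genes. The same libraries called these genes, so their full separation follows from the choice.

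**Figure D2:**
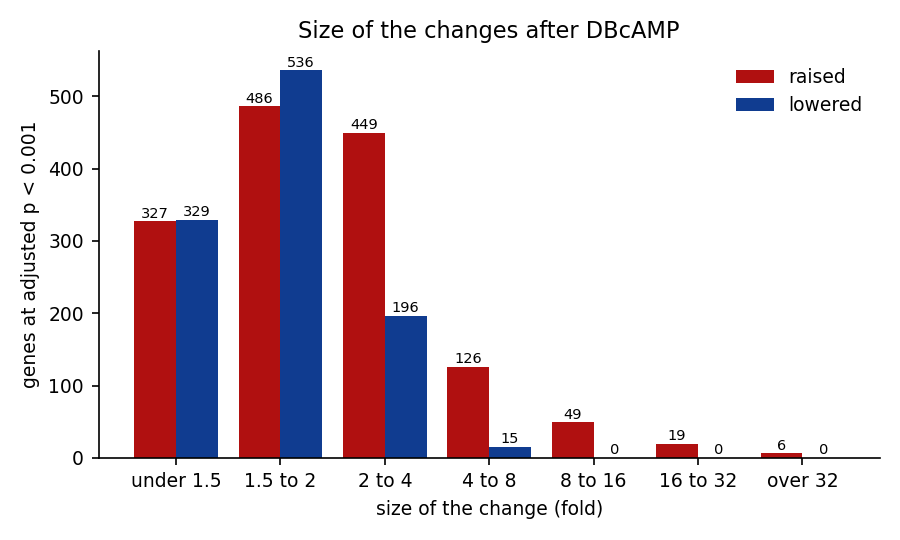
Number of genes raised (red) or lowered (blue) by DBcAMP at an adjusted p-value under 0.001, by the size of the change in fold. Lowered genes end at the class of 4- to 8-fold with 15 genes, where raised genes number 126 and continue past 32-fold.

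The shares of genes that rose and fell also differed by mean level over the 6 libraries. Levels between genes are given in the authors' RPKM, which scales read-pairs by gene length and library total. A rise itself moves a gene to a higher mean and a fall to a lower one, so part of this is built in. In Untreated glands alone the median was 20.7 RPKM for raised, 18.3 RPKM for lowered and 10.7 RPKM for all tested genes. Among 298 genes with a mean RPKM over 200 in the 6 libraries, 22.5% rose and 2.01% fell. Between 50 and 200 RPKM 23.7% of 1640 genes rose and 6.16% fell, between 10 and 50 RPKM the shares were 11.7% and 10.2% of 5726 genes, and between 1 and 10 RPKM 5.24% and 6.74% of 5590. Below 1 RPKM 2.29% of 1922 genes rose and 0.312% fell. The median standard error of the log2 fold change was 0.42 below 1 RPKM and 0.07 between 50 and 200 RPKM, so that small changes were not detectable in the least abundant genes.

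The 200 genes raised over 4-fold were mostly low in Untreated glands. Their median level was 2.06 RPKM in Untreated and 14.6 RPKM in DBcAMP glands, against 10.7 RPKM for all tested genes in Untreated glands. In Untreated glands 78 of them (39%) were under 1 RPKM, against 12.7% of all tested genes. The 15 genes lowered over 4-fold had median levels of 3.6 and 0.709 RPKM. In 36 of the 200 genes the Untreated mean was under 5 normalized read-pairs, so these genes were tested only because of their level with DBcAMP, and their fold changes rest on few read-pairs. One of the 36 had no read-pair in any Untreated library and 23, 19 and 16 in the DBcAMP libraries, which is at least 23.6-fold higher against a floor of 3 read-pairs over the group. The other 164 genes had an Untreated median of 3.74 RPKM, and 43 of them (26.2%) were under 1 RPKM. In these 164 genes the lowest DBcAMP library was at least 1.71-fold above the highest Untreated library, with a median of 4.27-fold and more than 2-fold in 161 genes. The spread between pools was similar in both groups: the median coefficient of variation of these genes was 15.8% in DBcAMP libraries (200 genes) and 15.7% in Untreated libraries (164 genes).

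The strongly raised genes took 0.559%, 0.543% and 0.586% of all read-pairs in the Untreated libraries and 3.20%, 3.06% and 3.34% in the DBcAMP libraries. The groups were far apart compared with the spread between pools. All 1462 raised genes took 13.9% ± 0.173 (SD, n = 3) of read-pairs in Untreated and 24.4% ± 0.630 (SD, n = 3) in DBcAMP libraries, and the 1076 lowered genes took 8.66% ± 0.0909 (SD, n = 3) and 5.01% ± 0.146 (SD, n = 3). These shares describe the genes chosen by the same libraries. The gain was spread over many genes: genes with a higher share of read-pairs after DBcAMP gained 12.2% of all read-pairs together, of which the 10 largest gains made up 11.8% and the 200 strongly raised genes 21.7%. The largest single loss, 0.747% of all read-pairs, was that of a gene which took 4.78%, 5.47% and 4.63% of the Untreated libraries and 3.88%, 4.59% and 4.16% of the DBcAMP libraries. That gene did not pass the test (log2 fold change -0.10, SE 0.10, adjusted p = 0.448 by edgeR).

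The largest rise among genes with at least 50 normalized read-pairs in the higher group was that of ENSRNOG00000011598. Its normalized counts were 4.66, 8.40 and 4.48 in Untreated libraries and 641.7, 531.5 and 394.2 in DBcAMP libraries. The lowest DBcAMP library was far above every Untreated library, but printed genes were chosen for large changes and groups without overlap. The fold change was 89.0 (log2 fold change 6.48, SE 0.27, adjusted p = 1.42e-09 by edgeR). In NE libraries the gene reached 16.4, 24.6 and 22.7 RPKM against 21.5, 17.7 and 13.2 RPKM with DBcAMP, and these ranges overlap. The direct comparison of DBcAMP with NE gave a log2 difference of -0.23 (SE 0.16, adjusted p = 0.474 by edgeR), with 2 standard errors reaching from -0.55 to 0.09. In Control glands it was at 0.560, 0.422 and 0.210 RPKM by day and at 46.5, 49.8 and 39.1 RPKM by night, a log2 fold change of 7.01 (SE 0.22). The night level in Control glands was thus above that of every cultured library. In SCGX glands it did not exceed 1.48 RPKM, and in DCN glands 0.130 RPKM, at either time. The mixed tissue library held 8.94 RPKM, so transcripts were also found outside the pineal gland.

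The next largest rise, that of ENSRNOG00000043031, had another pattern. Normalized counts were 0.933, 1.87 and 4.48 in Untreated libraries and 230.2, 205.1 and 229.0 in DBcAMP libraries, with little spread among the treated pools. The log2 fold change was 6.36 (SE 0.28, adjusted p = 2.94e-09 by edgeR), and the Untreated values rest on 1, 2 and 6 read-pairs. With NE the gene was at 0.150, 0.174 and 0.702 RPKM, against 11.6, 10.3 and 11.6 RPKM with DBcAMP. All DBcAMP libraries were above all NE libraries, and the direct comparison gave a log2 difference of 5.05 (SE 0.31, adjusted p = 1.31e-06 by edgeR). In Control glands it was at 0.694, 0.196 and 1.18 RPKM by day and 0.378, 0.645 and 0.333 RPKM by night, and the times overlapped (log2 fold change -0.43, SE 0.57, adjusted p = 0.599 by edgeR). The DBcAMP effect exceeded the night effect by 6.82 on the log2 scale (SE 0.70, adjusted p = 1.39e-05 by edgeR). The same DBcAMP libraries chose this gene for its rise, which favours both differences. Its Untreated mean of 2.42 normalized counts was under 5, so it was tested only because of its level with DBcAMP. Mixed tissue held 5.38 RPKM.

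The largest fall was that of ENSRNOG00000003887, from 53.2, 42.0 and 92.5 to 8.35, 9.07 and 10.3 normalized counts. The log2 fold change was -2.76 (SE 0.37, adjusted p = 6.70e-05 by edgeR), and the Untreated pools spread more than the treated ones. NE libraries lay between, at 1.20, 0.804 and 0.786 RPKM against 2.20, 1.68 and 3.69 RPKM in Untreated and 0.307, 0.331 and 0.377 RPKM in DBcAMP libraries. The direct comparison of DBcAMP with NE gave -1.41 (SE 0.35, adjusted p = 0.0311 by edgeR), which did not pass 0.001. The gene was nearly absent from glands taken directly from Control rats, with at most 3 read-pairs in a library. It reached 114 read-pairs in 1 DCN day library and 48 in 1 Sham night library, where the other libraries of those groups held at most 2. Mixed tissue held 14.0 RPKM.

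Among genes with at least 50 normalized read-pairs in the higher group, the next largest fall was that of ENSRNOG00000042246. Its normalized counts went from 127.8, 112.9 and 141.7 to 22.7, 21.5 and 23.9 (log2 fold change -2.49, SE 0.19, adjusted p = 5.87e-07 by edgeR). NE libraries were at 0.373, 0.460 and 0.356 RPKM, against 0.504, 0.474 and 0.531 RPKM with DBcAMP, a log2 difference of 0.39 (SE 0.29, adjusted p = 0.498 by edgeR). In Control glands the gene fell from 14.1, 8.97 and 16.8 RPKM by day to 1.16, 0.952 and 0.398 RPKM by night. That night effect was a log2 fold change of -3.80 (SE 0.33). In SCGX and DCN glands it stayed between 11.2 and 33.6 RPKM at both times, within or above the range of Control glands by day. The Untreated cultures, at 3.19, 2.73 and 3.41 RPKM, were below all Control day libraries.

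**Figure D3:**
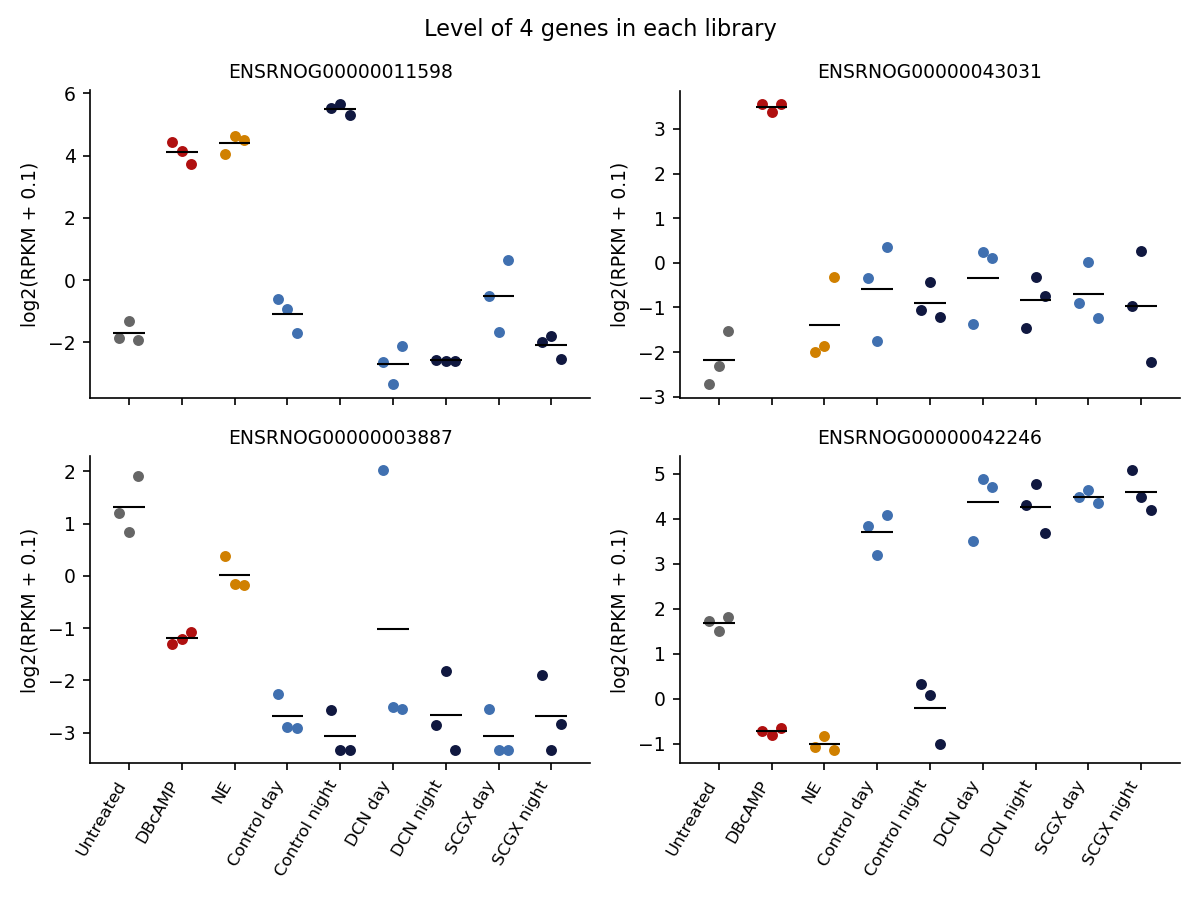
The 2 largest rises (top) and 2 largest falls (bottom) among called genes with at least 50 normalized read-pairs in the higher group. Levels are log2(RPKM + 0.1) by group, with 1 point per library and the mean as a line. ENSRNOG00000011598 is high with DBcAMP, with NE and at night in Control glands, whereas ENSRNOG00000043031 is high with DBcAMP and at most 1.18 RPKM in the other groups drawn.

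The glands of Control rats, which share no library with the cultures, show what the same genes did between day and night. Of the 200 genes raised over 4-fold by DBcAMP, 161 could be tested in Control glands. At night 89 of them (55.3%) were higher, against 6.37% of all genes tested in Control, and 3 were lower, against 3.02%. Their median log2 night/day difference was 2.03, against -0.03 for all genes, with quartiles of 0.50 and 3.21. Among the 145 tested genes whose Untreated mean was at least 5 normalized read-pairs, 83 were higher at night. Of the 15 genes lowered over 4-fold, 13 were tested in Control glands and 4 were lower at night. In the whole list of raised genes 557 of 1410 (39.5%) were higher at night, which is 56.7% of the 982 night genes tested in culture. Of the lowered genes 136 of 1072 (12.7%) were lower at night, which is 29.4% of 463 genes.

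**Figure D4:**
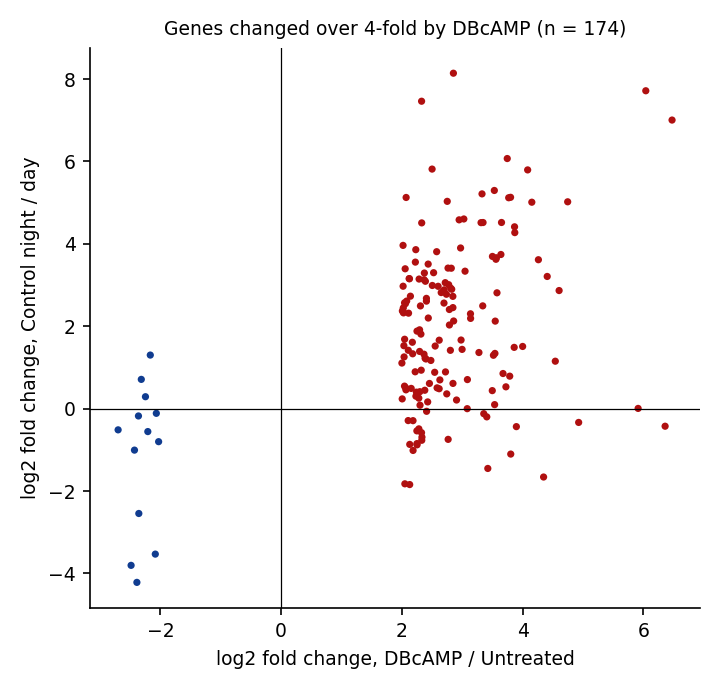
Log2 fold change of Control night over day against log2 fold change of DBcAMP over Untreated for the 174 genes changed over 4-fold by DBcAMP and tested in Control glands, 1 point per gene. Most raised genes (red) lie above 0, and a group of raised genes lies near or below 0.

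Genes chosen by the Control libraries alone were also read in culture. More than 4-fold higher at night were 296 genes (1.9%) and lower 76 genes (0.487%), of which 283 and 67 were tested in culture. Of the 283 genes DBcAMP raised 188 (66.4%, against 9.63% of all tested genes) and lowered 1 (0.353%, against 7.09%), with a median log2 fold change of 1.40 (quartiles 0.99 and 2.02), while their median night effect was 2.92. With NE the median was 1.44. The Control libraries chose these genes for a large night effect, so its larger size is expected from the choice. Of the 67 genes DBcAMP lowered 15 (22.4%, against 7.09%) and raised 3 (4.48%, against 9.63%), with a median of -0.32.

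Few genes moved with DBcAMP against the night direction. Of the raised genes tested in Control glands 25 (1.77%) were lower at night, against 3.15% of all genes tested in both comparisons, and of the lowered genes 12 (1.12%) were higher at night, against 6.68%. Both shares lie below those of all genes. The 3 genes of these that DBcAMP raised over 4-fold went from 1.42 to 5.35, from 1.23 to 22.9 and from 17.3 to 79.0 RPKM in culture. In Control glands they fell from 2.23 to 0.559, from 6.89 to 1.92 and from 41.4 to 22.7 RPKM at night (means of 3 libraries).

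The difference between the DBcAMP effect and the Control night effect was tested directly. It passed for 917 of 15560 genes (5.89%), with 446 (2.87%) more positive with DBcAMP and 471 (3.03%) more negative. Among the 200 strongly raised genes, 196 were tested, of which 54 rose more with DBcAMP and 11 rose more at night. Since these genes were chosen for a large DBcAMP effect, the excess of the former is expected from the choice, and no more is read from it. The number of genes called was 1823 by DESeq2 and 587 with the replicate number as a block.

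In 39 of the 200 strongly raised genes (19.5%) the level in Control glands was too low for a test, against 3.16% of all genes tested in culture. These 39 genes together held 437 to 645 read-pairs in an Untreated library, 3353 to 3706 in a DBcAMP library and 906 to 932 in a NE library. The rise with DBcAMP and the low level in Control glands chose these genes, so both are a description only. In Control glands the sum was 59 to 71 by day and 74 to 87 by night, lower than in Untreated cultures at both times. In DCN day glands the sum ranged from 62 to 517 and in Sham night glands from 111 to 277, and the highest values came from the same 2 libraries that held most ENSRNOG00000003887. In mixed tissue the median level of these genes was 1.19 RPKM, against 10.9 RPKM for all tested genes (1 library, with no replicate check). In the pineal day library of the same comparison their median was 0.0332 RPKM, and 33 of the 39 genes were higher in mixed tissue. Their low level in Control glands, which chose them, favours this direction. Of the 39 genes, 20 had an Untreated mean under 5 normalized read-pairs and were tested only through their level with DBcAMP. The count of 39 was 12 with at least 10 read-pairs required in every library.

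The strongly raised genes were also set against mixed tissue (1 library each). Their median log2 ratio of pineal over mixed tissue was -0.54 by day and 0.63 by night, against 0.07 and -0.10 for all tested genes. More than 8-fold higher in the pineal gland were 5 of them by day (2.5%, against 1.44% of all tested genes) and 32 by night (16%, against 2.04%). More than 8-fold lower were 37 by day (18.5%, against 5.1%) and 36 by night (18%, against 6.55%). The 213 genes over 8-fold above mixed tissue by day did not follow DBcAMP in 1 direction: of 189 tested, 30 rose (15.9%, against 9.63% of all tested genes), 33 fell (17.5%, against 7.09%), and 5 rose more than 4-fold.

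NE and DBcAMP were each compared with the same 3 Untreated libraries, so the agreement of both comparisons is not a result. Side by side, the 200 strongly raised genes had a median log2 fold change of 2.72 with DBcAMP, which chose them, and of 2.09 with NE in the 186 genes tested, with quartiles of 1.36 and 2.97. The 15 strongly lowered genes had medians of -2.36 and -1.48. Compared directly, DBcAMP and NE differed in 154 of 15026 genes (1.02%), of which 134 (0.892%) were higher and 20 (0.133%) lower with DBcAMP. The median difference of the former was 1.06 on the log2 scale and 20 of them (0.133%) exceeded 4-fold, whereas the largest difference of the latter was 1.51. Of the 200 strongly raised genes, 43 were higher and 5 lower with DBcAMP than with NE; their choice rests on the same DBcAMP libraries and favours the former. The 154 genes became 79 without DBcAMP replicate 1, and 56, 50 and 80 without NE replicate 1, 2 or 3.

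The median level of the DBcAMP gene sets in each pineal library was also set against Control day. For the strongly raised genes it was 0.10 to 0.19 on the log2 scale in Untreated, 2.59 to 2.73 in DBcAMP and 2.06 to 2.20 in NE libraries. It was 1.15 to 1.24 in Control night and 1.28 to 1.71 in Sham night libraries. The DBcAMP libraries chose these genes, and 39 of them were too low in Control glands for a test. In the 161 tested genes the median night/day difference was 2.03. The whole set took 3.30% of read-pairs in Control night and 0.547% in Control day libraries (means). With DBcAMP it took 3.20% and in Untreated libraries 0.562%. In DCN and SCGX glands the median level of the 200 genes lay between -0.06 and 0.18 at both times, close to Control day and Untreated cultures. That median gives low genes as much weight as abundant ones. The 200 genes together held more read-pairs there than the 81722 to 93354 of a Control day library. Sums were 131869 to 173996 in SCGX day, 109722 to 143080 in SCGX night, 95440 to 102969 in DCN day and 110280 to 131675 in DCN night libraries. SCGX and DCN library totals did not exceed 15893427 read-pairs, against 15260599 to 16734129 in Control day. Among the 161 genes tested in Control, median levels were 5.26 to 6.07 RPKM in SCGX day and 4.53 to 5.33 RPKM in SCGX night libraries. These lay above the 3.42 to 4.21 RPKM of Control day. DCN libraries were at 3.18 to 5.04 RPKM by day and 3.3 to 3.94 RPKM by night. At the threshold used, edgeR called no strongly raised gene between night and day in SCGX (149 tested) or DCN glands (154 tested), where 0.0129% and 0% of all genes were called. At an unadjusted p-value under 0.05, 10 of them were higher and 46 lower at night in SCGX glands, and 22 were higher and 13 lower in DCN glands. These are 37.6% and 22.7% of the strongly raised genes tested, against 18.5% and 8.86% of all genes. For the lowered genes as a whole the level was -0.20 to -0.18 in Untreated, -1.07 to -1.0 in DBcAMP and -0.52 to -0.41 in Control night libraries. On the same scale, which divides by library total, the median of all tested genes also shifted. It was -0.08 to -0.04, -0.24 to -0.22 and -0.23 to -0.12 in these groups. Part of each fall on this scale was thus shared by all genes. After TMM the median log2 fold change of all genes was -0.031 for DBcAMP and -0.034 for Control night.

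**Figure D5:**
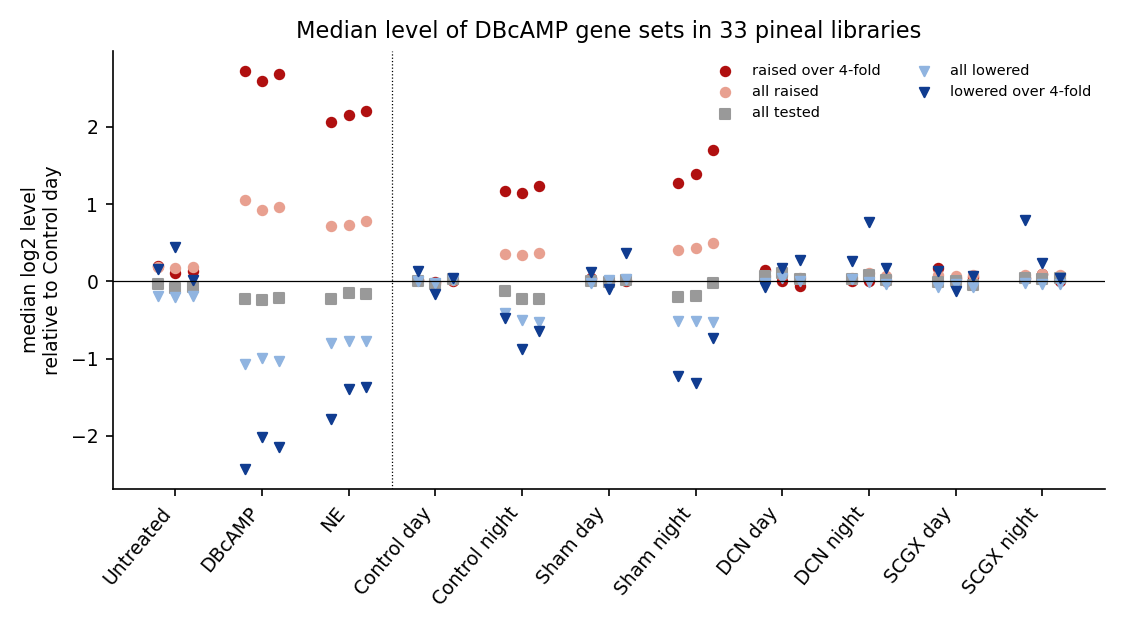
Median log2 level of the DBcAMP gene sets relative to the mean of Control day, from log2(RPKM + 0.1), in each of 33 pineal libraries by group, cultures left of the dotted line. Genes raised over 4-fold lie between 2.59 and 2.73 with DBcAMP, between 1.15 and 1.24 in Control night, and between -0.06 and 0.18 in DCN and SCGX libraries. The DBcAMP and Untreated libraries chose the raised and lowered sets.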

How the data were processed

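RNA of pooled rat pineal glands was sequenced by the authors from stranded, ribo-depleted libraries, aligned with STAR 2.3.1y to the rn4 assembly, and counted as read-pairs per Ensembl gene with QoRTs. The authors deposited raw read-pair counts for each library, and RPKM values, the counts divided by gene length and library total. Read-pairs shared by several genes were left out by their counting rule, so near-identical genes are uncertain. Counts were tested with edgeR 4.0.16 in R 4.3.3 (TMM normalization, quasi-likelihood test, Benjamini-Hochberg adjustment) in genes that averaged 5 or more normalized read-pairs, and called at an adjusted p-value under 0.001, strong over 4-fold. Standard errors are the log2 fold change divided by the square root of F. RPKM values served for levels, with 0.1 added before logarithms, and were not tested.

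Alternatives were DESeq2 1.42.0 with and without its fold change prior, median-of-ratios or library size scaling, no filter, a minimum of 10 read-pairs per library, a joint model of the cultures, the replicate number as a block, and leaving out each library. The tests were run on simulated counts first. With 3 libraries against 3, an exact permutation test of a single gene cannot go below 0.1. Printed identifiers follow a rule: the 2 largest rises and falls among called genes whose groups do not overlap and whose higher group has a mean of at least 50 normalized read-pairs, reduced from 20 and 15 because no identifier had a symbol. For the same reason 26 lists of 466 gene symbols, marker genes and promoter sequences were not used here. Members, lists and tests were chosen with earlier results of these data known. Columns of no other samples were used. Python 3.11.15 and matplotlib 3.10.9 drew the figures.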

Additional observations from a re-analysis of the deposited data

Results flagged for a closer look

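Some results stood out because an effect differed between conditions in a test of the difference itself. The effect of DBcAMP differed from the night effect in Control glands for 917 genes, and the level with DBcAMP differed from that with NE for 154 genes, both by edgeR at an adjusted p-value under 0.001. ENSRNOG00000043031 met both: its DBcAMP effect exceeded its Control night effect by 6.82 on the log2 scale, and its level with DBcAMP exceeded that with NE by 5.05. It was higher in 3 of 3 DBcAMP libraries than in any NE library. The same DBcAMP libraries chose this gene for its rise, which favours both differences. With 3 libraries per group, single libraries were not tested for standing apart.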

How the results depend on the processing

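The changes of the 4 printed genes kept their direction and passed the threshold under every alternative in which they were tested. With a minimum of 10 read-pairs in every library, only ENSRNOG00000042246 of these genes was tested. For DBcAMP against Untreated, 3913 genes were called without a filter on low counts, and the lowered genes numbered 1868 without that filter and 1943 with library size scaling. Genes lowered over 4-fold numbered 26 without the filter, 7 with a minimum of 10 read-pairs per library and 5 by DESeq2 under its prior on fold changes. Strongly raised genes too low to test in Control numbered 12 with that minimum and 25 under that prior. Leaving out 1 library at a time gave 1559 to 2202 called genes, 1041 to 1378 raised, 518 to 824 lowered, 167 to 201 strongly raised and 10 to 16 strongly lowered. It also gave 80 to 88 strongly raised genes higher at night, 27 to 36 too low to test in Control, and 459 to 527 raised genes higher at night. Fewer libraries leave fewer degrees of freedom.

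DBcAMP and NE differed in 422 genes by DESeq2 (346 higher, 76 lower), 575 without the filter (455 higher, 120 lower), 79 with the replicate block (75 higher, 4 lower), and 50 to 148 without 1 library (48 to 135 higher, 2 to 16 lower). DBcAMP and Control night effects differed in 1823 genes by DESeq2 (903 more positive, 920 more negative), 1402 without the filter (711 more positive), 587 with the replicate block (296 and 291), and 632 to 1110 without 1 library (305 to 547 and 296 to 563). Except for the fewer libraries, the cause of these changes was not tested. The labels do not say whether the replicate numbers pair the cultures. Deviations of same-numbered Untreated and DBcAMP libraries correlated at 0.081, 0.081 and -0.157, and those of differently numbered ones at -0.338 to 0.275. With 3 libraries a group these values cannot decide it. The block left 2331 genes changed by DBcAMP.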
